A study of Mus musculus with 12 samples.

Results

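Apicidin, an inhibitor of histone deacetylases, was given to Beko cells at 0.01 µg/ml for 24 h. Beko is a mouse pre-T cell line. Total RNA without ribosomal RNA was then sequenced. The 2 apicidin libraries were set against 2 libraries from cells given DMSO for 24 h, and both groups grew in the same IMDM-based medium with fetal calf serum, peptone and insulin. The series holds 2 further experiments of the same size in the same cells. In one, 10 µg/ml DAPT, an inhibitor of γ-secretase, was set against its own DMSO control at 24 h, and in the other a short hairpin against Hdac3 (shHdac3) was set against a scrambled hairpin, labelled 96 h. No library is shared between the 3 experiments. All results come from 1 cell line, 1 apicidin dose and 1 time. A gene counted as measured where 2 or more of the 4 libraries had a normalized read count of at least 10, which held for 12463 of the 23366 genes in the deposited apicidin table. Another 6988 genes were at 0 in all 4 libraries, and 3915 were detected below that level.

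Histone deacetylases remove acetyl groups from lysines of histones and other proteins. The class I enzymes HDAC1, HDAC2 and HDAC3 act inside corepressor complexes: the NCoR complex holds HDAC3, while Sin3, NuRD and CoREST hold HDAC1 and HDAC2. Apicidin is a fungal cyclic tetrapeptide that binds the zinc in the catalytic pocket and acts mainly on class I enzymes. Pre-T cells are thymocytes that signal through the pre-T cell receptor, a complex of a T cell receptor β chain, the invariant pTα chain and CD3, and their survival and growth depend on Notch. After ligand binding, γ-secretase releases the Notch intracellular domain, which binds RBPJ on DNA and switches its target genes on; without it RBPJ recruits corepressors that contain histone deacetylases. The series asked what HDAC3 does at Notch target genes, and apicidin was its pharmacological arm.

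The apicidin libraries held 21766984 and 26863055 reads assigned to genes and the DMSO libraries 22182543 and 29652001. Replicates correlated at r = 0.996 (apicidin) and 0.995 (DMSO) across measured genes. Chi-square per degree of freedom was 8.44 between the apicidin and 11.5 between the DMSO replicates, above the value of 1 that counting alone gives. All 12 T lineage markers were measured. B cell, myeloid, erythroid and natural killer (NK) markers were mostly below the filter, and Pax5, Ebf1, Cd14, Cebpa, S100a8, the globin genes, Ncr1 and Klrd1 were at 0 in all 4 libraries. The summed T lineage markers stood at 103940 and 103920 normalized reads with apicidin, against 132890 and 131840 with DMSO, with 8 of the 12 genes lower and 2 higher, or 1 higher without any 1 library other than DMSO replicate 2. The myeloid sum was 806 and 759 with apicidin, against 549 and 519 with DMSO, carried by Itgam, the 1 measured gene of that list, of whose exonic bases 68.7% overlap another gene on the same strand. In bulk RNA, fewer cells of a type and less RNA per cell cannot be told apart.

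Apicidin changed many measured genes by small amounts and few by large ones. By limma on log2(value + 1) with Benjamini-Hochberg adjustment, 4746 genes (38.1%) passed an adjusted p under 0.05, 2265 of them higher (18.2%) and 2481 lower (19.9%). The median fold among the calls was 1.22 for the higher and 1.23 for the lower genes. In all, 257 genes (2.06%) passed with a change of 2-fold or more, 103 higher and 154 lower, and 4 higher and 15 lower reached 4-fold. The 2 apicidin values lay on one side of both DMSO values in 4738 of the 4746 calls, beside 8602 of all measured genes (69%). A call rested on the spread between 2 libraries a group, and 2563 of the 4746 calls held when each of the 4 libraries was left out in turn. Separate cultures are not stated for the replicates, and the spread behind each p may therefore be technical. By the adjusted p of the authors' deposited table, 2465 genes (19.8%) passed. Below, "rose" and "fell" are used of genes that passed; single genes held without any 1 of the 4 libraries unless a left-out library is named. Each log2 fold change stands with the SE of its fit, and levels are normalized reads per library.

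The share of genes called depended on their level. In the 1247 genes with the lowest means, 5.81 to 29.0 normalized reads, 13.07% were called, with a median absolute log2 fold change of 1.18 among the calls. In the 1247 genes with the highest means, 3219 and above, 55.3% were called, with a median of 0.22. The balance of higher and lower calls differed little along the range, with 42.3% to 53.1% of the calls higher in the 10 bins. Of the 257 calls at 2-fold or more, 123 lay in the lowest bin.

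**Figure D1:**
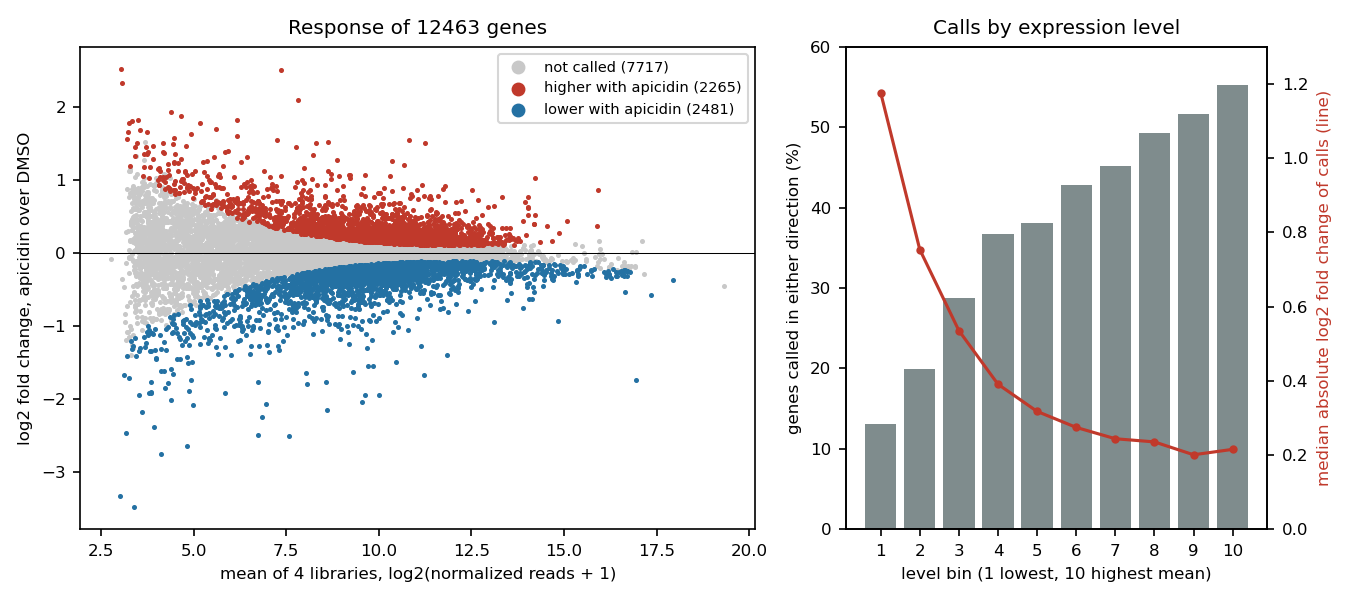
Left, log2 fold change of apicidin over DMSO (vertical) against the mean of the 4 libraries on the log2(normalized reads + 1) scale (horizontal), with 2265 genes called higher in red, 2481 called lower in blue and 7717 not called in grey. Right, the percentage of genes called in each of 10 bins of mean level (bars) and the median absolute log2 fold change of those calls (red line): the share climbs to 55.3% while the median change of the calls drops to 0.22.

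The deacetylase genes themselves were measured first. All 11 classical genes were measured, 3 rose and 2 fell (median -0.03, against 0.00158 over all measured genes). Their called share was 45.5%, beside 38.1% of all genes. Hdac5, a class IIa enzyme that shuttles between cytoplasm and nucleus, had 456 and 472 normalized reads in the apicidin libraries, against 143 and 185 in the DMSO libraries, and rose (1.51 ± 0.11, adjusted p = 1.5e-08). Its groups lay far apart, and it was among the 12 largest rises of genes with a mean of 50 or more. Hdac1 rose as well (4048 and 3977 with apicidin, against 3317 and 3115 with DMSO; 0.32 ± 0.04). Hdac3, the gene the hairpin targets, was at 2008 and 2039 with apicidin, against 2172 and 2262 with DMSO (-0.13 ± 0.04, adjusted p = 0.027), a difference not held without apicidin replicate 1 (adjusted p = 0.15), without apicidin replicate 2 (adjusted p = 0.081) or without DMSO replicate 2 (adjusted p = 0.14). The mRNA of a drug's target does not check the treatment, so Hdac3 levels bear here only on the gene's own expression. Hdac2 (-0.11 ± 0.04; not held without apicidin replicate 1 (-0.07, adjusted p = 0.42) or without DMSO replicate 1 (adjusted p = 0.15)) and Hdac7 (0.16 ± 0.05; not held without apicidin replicate 1 (0.10, adjusted p = 0.22)) moved by less than Hdac1. Without apicidin replicate 1 no deacetylase gene fell, and without any of the others 1 fell.

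**Figure D2:**
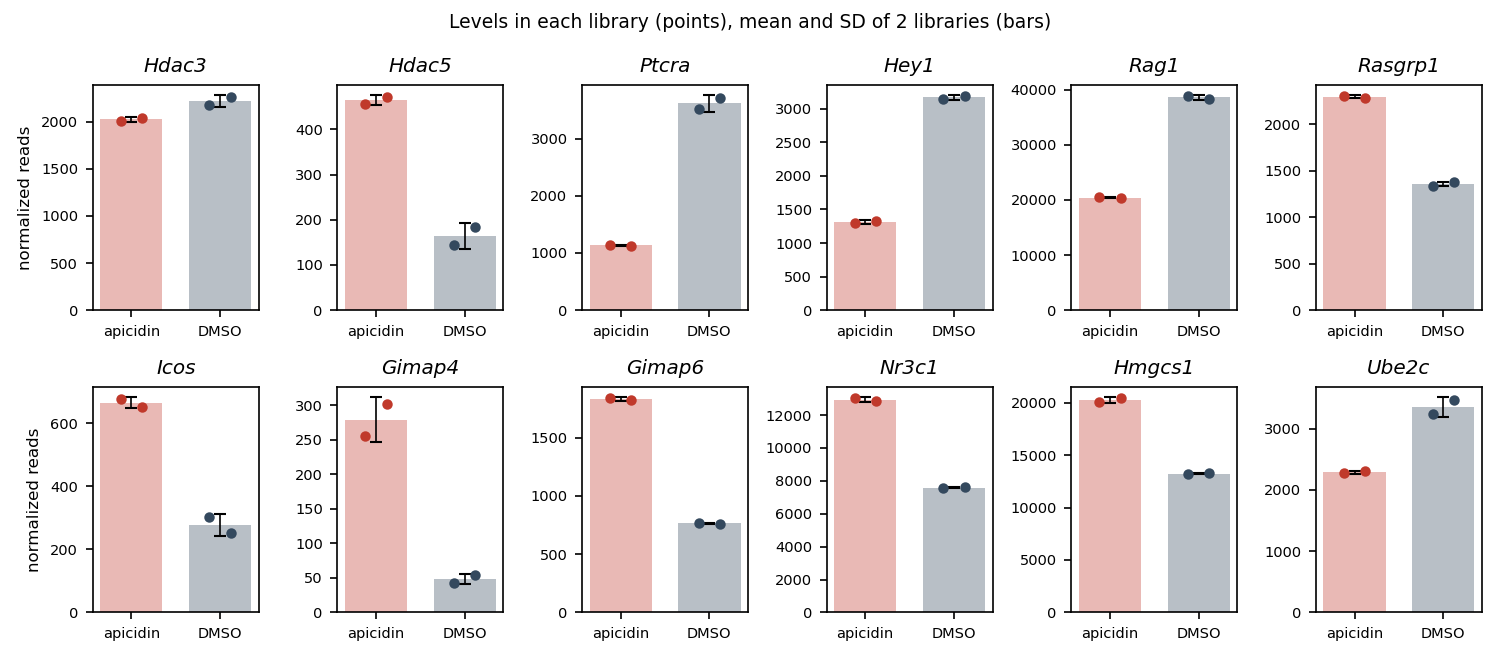
Normalized reads (vertical axis, from 0) of 12 genes in each apicidin and DMSO library; points are libraries, bars are means and error bars are the SD of 2 libraries. Hdac5, Rasgrp1, Icos, Gimap4, Gimap6, Nr3c1 and Hmgcs1 are higher with apicidin in both libraries, Ptcra, Hey1, Rag1 and Ube2c are lower, and Hdac3 differs least in proportion, at 2023 against 2217 on average.

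Genes reported to respond to deacetylase inhibitors in many cell types went both ways, 5 rising and 2 falling of 11 measured (median 0.14). Gsn, which encodes the actin-severing protein gelsolin, had 7703 and 7426 with apicidin, against 4198 and 4124 with DMSO (0.86 ± 0.04). Txnip, an inhibitor of thioredoxin and of glucose uptake (0.77 ± 0.04), the linker histone gene H1f0 (0.64 ± 0.05) and the tubulin gene Tubb3 (0.39 ± 0.09; 0.24 without DMSO replicate 1) rose too. Klf6 (0.20 ± 0.05) also rose, a call not held without apicidin replicate 1 (adjusted p = 0.062). Cdkn1a, which encodes the cell cycle inhibitor p21 and rises in many cells given such inhibitors, had 382 and 345 with apicidin, against 599.9 and 627 with DMSO and fell (-0.76 ± 0.08, adjusted p = 7.7e-07). Hspa2 (-0.23 ± 0.08) was the other gene to fall, a call not held without apicidin replicate 1 (adjusted p = 0.11), without apicidin replicate 2 (adjusted p = 0.12) or without DMSO replicate 2 (adjusted p = 0.21). Tyms, which encodes thymidylate synthase, was at -0.03 ± 0.04 (adjusted p = 0.6), and Clu at -1.05 ± 0.44 (adjusted p = 0.07).

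Subunits of the complexes that carry deacetylases were called about as often as other genes, 37.1% against 38.1%. Of 35 genes of NCoR, Sin3, NuRD, CoREST and the mitotic deacetylase complex, 7 rose and 6 fell, and without apicidin replicate 2 only 4 rose. NuRD held the largest changes: the methyl-CpG-binding domain subunit Mbd3 (850.1 and 870.4 with apicidin, against 1278 and 1179.7 with DMSO; -0.51 ± 0.06), the remodelling ATPase Chd3 (-0.47 ± 0.04) and Mta3 (-0.28 ± 0.05) fell. Ncor1, a scaffold that binds HDAC3 (-0.05 ± 0.05, adjusted p = 0.41), did not pass. None of the 5 CoREST genes passed.

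Of 15 acetyltransferase and coactivator genes, 2 rose and 7 fell, and of 9 bromodomain and related reader genes 2 rose and 4 fell. Without apicidin replicate 1 only 4 of the 15 fell, and 1 reader gene rose without any 1 library other than DMSO replicate 2. Kat2b, which encodes the acetyltransferase PCAF, had 980.3 and 935 with apicidin, against 1527 and 1526 with DMSO and fell most (-0.67 ± 0.05). Crebbp, the CBP acetyltransferase gene (2195 and 2203 with apicidin, against 2826 and 2580.1 with DMSO; -0.30 ± 0.05), Kat6b (-0.39 ± 0.06) and Kat2a, which encodes GCN5 (-0.26 ± 0.05), fell too, whereas Ep300, which encodes p300, was at 0.05 ± 0.05 (adjusted p = 0.45). Among the readers Brpf3 (-0.54 ± 0.07) and Brd9 (-0.31 ± 0.05) fell and Brpf1 rose (0.33 ± 0.04).

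Other chromatin genes changed in smaller groups. In PRC2, the Polycomb complex that methylates histone H3 at lysine 27, 5 of 9 genes rose and 1 fell. The accessory subunit Jarid2 (2502 and 2480.2 with apicidin, against 1811 and 1748 with DMSO; 0.49 ± 0.04), Aebp2 (0.36 ± 0.04) and the core subunit Suz12 (0.31 ± 0.04) rose, Phf19 fell (-0.55 ± 0.08), and the methyltransferase gene Ezh2 was at -0.01 ± 0.05 (adjusted p = 0.83). In PRC1, Bmi1 (-0.39 ± 0.07) fell and Rybp (0.32 ± 0.05) and Cbx2 (0.30 ± 0.05) rose. Tet1, an enzyme that oxidizes 5-methylcytosine (427 and 429 with apicidin, against 715 and 689 with DMSO; -0.71 ± 0.07), and the de novo DNA methyltransferase gene Dnmt3b (663 and 668 with apicidin, against 1059 and 991 with DMSO; -0.62 ± 0.06) fell, with no overlap between groups for either gene. The maintenance methyltransferase gene Dnmt1 was at 0.05 ± 0.05 (adjusted p = 0.45).

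Ptcra, which encodes pTα and is a Notch target in these cells, was the Notch target gene with the largest fall. It had 1138 and 1129 normalized reads in the apicidin libraries, against 3511 and 3714 in the DMSO libraries (-1.67 ± 0.05, adjusted p = 6.8e-14). Its promoter window (250 bases before to 50 after the annotated start site, RefSeq, GRCm38.p6, chr17:46763663-46763962, minus strand) is shown because it holds TGGGAA, the core of RBPJ sites, 2 times; capitals mark the matches, which begin 84 and 32 bases before the start site.
Ptcra: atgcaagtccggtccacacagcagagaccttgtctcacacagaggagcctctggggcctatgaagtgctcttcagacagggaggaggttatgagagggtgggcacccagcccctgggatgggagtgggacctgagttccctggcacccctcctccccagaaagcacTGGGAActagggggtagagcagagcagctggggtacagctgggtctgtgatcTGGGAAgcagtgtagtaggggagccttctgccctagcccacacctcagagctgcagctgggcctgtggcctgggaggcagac
TGGGAA on either strand was in 25.6% of the 32851 promoter windows of the table. Of the 22 listed Notch target genes, 16 had windows there, and 5 of these held it: Hes5, Ptcra, Lfng, Igf1r and Cd3g. These 5 did not move together: Ptcra and Cd3g (-0.36 ± 0.05) fell, Igf1r rose (0.43 ± 0.07), Lfng was at 0.02 ± 0.24 (adjusted p = 0.95) and Hes5 was not measured. A match is a string of letters in a window and no evidence of binding.

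Of the 21 measured Notch target genes, 13 fell and 5 rose (median -0.36). The repressors Hey1 (1298 and 1334 with apicidin, against 3145 and 3192 with DMSO) and Heyl (128 and 126 with apicidin, against 385 and 411 with DMSO) were lower in both apicidin libraries than in both DMSO libraries. Dtx1, a ubiquitin ligase of the pathway, was at 4844 and 4798 with apicidin, against 7166 and 8074 with DMSO. In contrast to these, Gata3 (3298 and 3250.5 with apicidin, against 2008 and 2302 with DMSO; 0.61 ± 0.05), a transcription factor required for T cell commitment, and Tcf7, which encodes TCF1 (21361 and 20938 with apicidin, against 15935 and 16145 with DMSO; 0.40 ± 0.05), rose. Trib2, a pseudokinase gene (0.52 ± 0.04), rose too. Hes1 was at 504 and 558 with apicidin, against 579 and 672 with DMSO (-0.23 ± 0.08), a call not held without apicidin replicate 1 (adjusted p = 0.21) or without DMSO replicate 2 (-0.13, adjusted p = 0.26). Nrarp was at -0.40 ± 0.06, but 79.4% of its exonic bases overlap a gene on the opposite strand, and the strand setting of the counting is not given in the sources used here.

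Notch pathway components were called about as often as other genes, 40.5% against 38.1%, with 7 rising and 8 falling of 37 measured. The receptor genes Notch1 (14523 and 13561 with apicidin, against 21199 and 22159 with DMSO; -0.63 ± 0.05) and Notch3 (4077 and 3898 with apicidin, against 6779 and 7075 with DMSO; -0.80 ± 0.04) fell and Notch2 was at -0.04 ± 0.06 (adjusted p = 0.61). In γ-secretase, the 3 genes of the APH1 subunit rose: Aph1a (0.27 ± 0.05), Aph1b (0.56 ± 0.11) and Aph1c (142 and 125 with apicidin, against 71.6 and 77.4 with DMSO; 0.83 ± 0.16). Aph1b and Aph1c are close copies, so reads may be split between them. The subunit genes Ncstn (-0.22 ± 0.05) and Psenen (-0.28 ± 0.07) fell. The nuclear partners Rbpj (0.05 ± 0.05, adjusted p = 0.45) and Maml1 (0.07 ± 0.06, adjusted p = 0.41) did not pass, while Kdm5a, a histone demethylase gene whose product binds RBPJ, rose (0.40 ± 0.04).

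Genes of the pre-T cell receptor and its signalling were described by role. Of the 5 receptor chains 4 fell and 1 rose, or 0 rose without either apicidin library or DMSO replicate 1, with Cd3g (5467 and 5889 with apicidin, against 7504 and 7029.9 with DMSO) and Cd3d (3282 and 3539.7 with apicidin, against 4076 and 3935 with DMSO) below Ptcra in size of change. Cd247, the ζ chain gene, was at 0.13 ± 0.04, a call not held without apicidin replicate 1 (adjusted p = 0.08), without apicidin replicate 2 (adjusted p = 0.11) or without DMSO replicate 1 (adjusted p = 0.06), and 56.4% of its exonic bases overlap a gene on the opposite strand. Downstream, 4 of 6 kinases rose and 1 fell, and 7 of 14 adaptors and effectors rose and 0 fell, beside 18.2% of all genes rising. The kinases that rose were 2 without apicidin replicate 1 or without DMSO replicate 1. Rasgrp1, the exchange factor that activates Ras below the receptor, had 2305 and 2282 normalized reads in the apicidin libraries, against 1339.6 and 1374 in the DMSO libraries (0.76 ± 0.05, adjusted p = 8.6e-10). The Tec family kinase gene Txk (0.37 ± 0.09) rose, as did the adaptor Grap2 (0.45 ± 0.05), Bcl10 (0.29 ± 0.06), Themis (0.28 ± 0.04) and Prkcq (0.27 ± 0.05). Lck, the kinase that starts the cascade, had 10337 and 10520 with apicidin, against 13331 and 13866 with DMSO and fell (-0.38 ± 0.04).

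Genes that restrain the receptor were mixed, with 4 of 11 rising and 3 falling. Cd6, a scavenger receptor of T cells, had the largest fall of the receptor signalling list, at 15.3 and 10.9 with apicidin, against 52.3 and 39.6 with DMSO (-1.74 ± 0.30, adjusted p = 2.1e-04), and the groups did not overlap. Ubash3a, a suppressor of receptor signalling (-0.37 ± 0.06), fell. The diacylglycerol kinase gene Dgka (0.35 ± 0.05), the ubiquitin ligase gene Cbl (0.24 ± 0.04) and the phosphatase gene Ptpn22 (0.20 ± 0.05) rose.

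V(D)J recombination, which assembles antigen receptor genes, had 1 rising and 7 falling genes of 14. Both recombinase genes fell: Rag1 had 20457 and 20312 normalized reads in the apicidin libraries, against 38889 and 38328 in the DMSO libraries (-0.92 ± 0.05), and Rag2 had 299.8 and 331 with apicidin, against 659 and 605 with DMSO (-1.001 ± 0.08). Dntt, which encodes the terminal transferase that adds untemplated nucleotides (15033 and 15542 with apicidin, against 22567 and 21486 with DMSO; -0.53 ± 0.05), and the Ku70 gene Xrcc6 (9763 and 10095 with apicidin, against 14784 and 14305 with DMSO; -0.55 ± 0.04) fell, as did the DNA-bending protein gene Hmgb2 (-0.47 ± 0.05). Prkdc, which encodes the catalytic subunit of DNA-dependent protein kinase, rose (1252 and 1295 with apicidin, against 1042 and 936 with DMSO; 0.37 ± 0.06). Lig4 (-0.05 ± 0.06, adjusted p = 0.55) and Dclre1c (-0.11 ± 0.05, adjusted p = 0.079), which act at the joining step, did not pass.

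Transcription factors of early T cells rose more often than they fell, 13 and 2 of 21, beside 6 E protein and Id genes with 1 rise and 4 falls. Sox13 had 1352 and 1245 with apicidin, against 734 and 727 with DMSO (0.83 ± 0.06), the CD4 lineage factor gene Zbtb7b (ThPOK) had 62.4 and 72.8 with apicidin, against 44.3 and 29.01 with DMSO (0.89 ± 0.24; 0.59 without DMSO replicate 2) and the Ikaros family gene Ikzf2 had 2347 and 2330.1 with apicidin, against 1642 and 1471 with DMSO (0.59 ± 0.05). Ets1 (0.39 ± 0.05), Ikzf1 (0.27 ± 0.04) and Sox4 (0.27 ± 0.05) rose, with 54.6% of the exonic bases of Sox4 opposite another gene. Gfi1, a repressor (-0.34 ± 0.04), and Ets2 (-0.45 ± 0.04) fell. Lef1 (-0.02 ± 0.04, adjusted p = 0.76), Runx1 (0.10 ± 0.05, adjusted p = 0.11) and Bcl11b (0.04 ± 0.04, adjusted p = 0.5) did not pass. Id1, an inhibitor of E proteins, fell (200.2 and 177 with apicidin, against 426 and 386 with DMSO; -1.10 ± 0.10) and Id2 rose (3118 and 3508 with apicidin, against 2571 and 2596 with DMSO; 0.36 ± 0.05). For the whole list of 27 measured genes, 14 rose and 6 fell. Without apicidin replicate 1 the number rising was 9, and without apicidin replicate 2 the number falling was 3. Leaving out each library left 8 to 13 of the 21 rising and 1 or 2 of the 6 E protein and Id genes falling.

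Surface genes of later thymocytes went both ways, with 4 rises and 3 falls of 11 (median -0.07), and Cd6, given above, changed most. Cd69, an early activation antigen, had 236 and 218 normalized reads in the apicidin libraries, against 74.99 and 79.1 in the DMSO libraries (1.55 ± 0.14, adjusted p = 1.1e-07). Cd53, a tetraspanin (1586 and 1799 with apicidin, against 852 and 779.7 with DMSO; 1.05 ± 0.06), the costimulatory receptor gene Cd28 (2351 and 2384 with apicidin, against 1333 and 1359.9 with DMSO; 0.81 ± 0.05) and the adhesion receptor gene Cd2 (0.55 ± 0.05) rose with it. Cd4 (5329.5 and 5324 with apicidin, against 6684 and 6873 with DMSO; -0.35 ± 0.04) and Slamf6 (-0.35 ± 0.08) fell, and the coreceptor genes Cd8a (0.0028 ± 0.04, adjusted p = 0.97) and Cd8b1 (0.13 ± 0.05, adjusted p = 0.057) and the αβ lineage gene Cd5 (-0.30 ± 0.13, adjusted p = 0.069) did not pass. Over the 21 measured genes of thymocyte stages 7 rose and 6 fell.

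Trafficking genes had 13 rises and 3 falls among 25 measured (median 0.22). All 5 chemoattractant receptor genes that passed, of 8 measured, were higher with apicidin. Ccr9, the receptor for the thymic and gut chemokine CCL25, had 2329 and 2229 with apicidin, against 982 and 988 with DMSO (1.21 ± 0.05). Ccr8 had 52.5 and 54.6 with apicidin, against 22.7 and 9.67 with DMSO (1.78 ± 0.33) and Cxcr6 had 429 and 404 with apicidin, against 210.2 and 227 with DMSO (0.93 ± 0.09). Gpr65, a proton-sensing receptor, had 106 and 108 with apicidin, against 34.1 and 35.2 with DMSO (1.60 ± 0.19), with 24.7% of its exonic bases opposite another gene. Among adhesion genes Icam1 (416 and 371 with apicidin, against 195 and 193 with DMSO; 1.01 ± 0.10), Itgb3 (0.76 ± 0.06) and Itgb7, a subunit of the gut-homing integrin (0.55 ± 0.04), rose. The laminin receptor subunits Itga6 (-0.41 ± 0.05) and Itgb1 (-0.35 ± 0.05) fell. Foxo1, a factor that drives homing and receptor genes in T cells, had 1369.8 and 1287 with apicidin, against 682 and 825 with DMSO (0.82 ± 0.07). Il7r, a target of its product, fell (200.2 and 208 with apicidin, against 389 and 367 with DMSO; -0.88 ± 0.10), and Klf2, another, was at 0.34 ± 0.23 (adjusted p = 0.26).

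Chains of the interleukin 2 receptor family went different ways. Il2ra (201 and 198 with apicidin, against 323 and 356 with DMSO; -0.76 ± 0.10), Il2rb (78.8 and 83.7 with apicidin, against 127 and 137 with DMSO; -0.70 ± 0.15), Il15ra (195 and 199 with apicidin, against 361 and 353 with DMSO; -0.86 ± 0.10) and Il7r fell. The common γ chain gene Il2rg (2532 and 2664 with apicidin, against 2109.9 and 2189.8 with DMSO; 0.27 ± 0.05; 30.5% of its exonic bases shared with another gene on the same strand), Il21r (0.78 ± 0.11) and Il10ra (0.53 ± 0.05) rose. Il4ra, which encodes the interleukin 4 receptor α chain, had 36.1 and 16.4 with apicidin, against 7.95 and 7.91 with DMSO (1.51 ± 0.40), a call not held without apicidin replicate 1 (0.96, adjusted p = 0.21). Both DMSO values of Il4ra were under 10, so it passed the filter only through its apicidin libraries. Over 22 measured receptor genes, Il4ra among them, 11 rose and 4 fell. The feedback gene Socs3 (-0.36 ± 0.04) fell. The kinase genes Jak1 (0.27 ± 0.04) and Pim1 (0.39 ± 0.05) and Stat3 (0.24 ± 0.04) rose. The STAT5 genes, whose products act below these receptors, were at 0.0027 ± 0.04 (Stat5a, adjusted p = 0.97) and 0.04 ± 0.04 (Stat5b, adjusted p = 0.46).

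The 8 measured Gimap genes, which encode GTPases of immune membranes and lie side by side on chromosome 6, all rose (median 1.25). Gimap4 had 256 and 302 normalized reads in the apicidin libraries, against 43.2 and 53.6 in the DMSO libraries (2.51 ± 0.16, adjusted p = 1.4e-09), the largest rise among genes with a mean of 50 or more. Gimap8 (604 and 567 with apicidin, against 189.8 and 216 with DMSO; 1.53 ± 0.09) and Gimap7 (318 and 319 with apicidin, against 118 and 114 with DMSO; 1.45 ± 0.11) followed. Gimap6 (1839 and 1818 with apicidin, against 765 and 761 with DMSO; 1.26 ± 0.05) and Gimap3 (123 and 95.5 with apicidin, against 45.4 and 44.8 with DMSO; 1.24 ± 0.19) rose by similar amounts. The smallest rises were in Gimap5 (351 and 320.1 with apicidin, against 249 and 187 with DMSO; 0.63 ± 0.12), Gimap1 (1144 and 1203 with apicidin, against 771 and 781 with DMSO; 0.60 ± 0.06) and Gimap9 (1641 and 1683 with apicidin, against 1291 and 1123 with DMSO; 0.47 ± 0.06). In each of the 8 genes both apicidin libraries lay above both DMSO libraries, and each call held without any 1 library. Of all measured genes 18.2% rose, and in 69% the groups did not overlap in either direction. Of the exonic bases of Gimap1, 36.0% overlap a gene on the opposite strand. The 3 promoter windows that hold TGTGGT, the core of RUNX sites, are shown with the match in capitals (RefSeq, GRCm38.p6, plus strand; chr6:48684328-48684627, chr6:48718371-48718670 and chr6:48738797-48739096). The motif stands on the opposite strand in each, so the capitals read ACCACA, starting 145, 79 and 95 bases before the start site.
Gimap4: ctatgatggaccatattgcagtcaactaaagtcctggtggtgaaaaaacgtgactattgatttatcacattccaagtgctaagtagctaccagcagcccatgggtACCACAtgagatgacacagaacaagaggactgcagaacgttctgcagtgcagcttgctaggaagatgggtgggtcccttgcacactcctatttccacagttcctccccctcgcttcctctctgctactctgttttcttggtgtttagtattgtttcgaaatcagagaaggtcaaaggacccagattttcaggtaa
Gimap7: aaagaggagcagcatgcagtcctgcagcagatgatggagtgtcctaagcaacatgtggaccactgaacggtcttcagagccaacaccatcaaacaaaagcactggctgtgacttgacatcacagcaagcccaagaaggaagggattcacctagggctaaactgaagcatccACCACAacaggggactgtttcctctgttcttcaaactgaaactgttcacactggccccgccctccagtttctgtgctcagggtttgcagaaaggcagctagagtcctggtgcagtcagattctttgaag
Gimap1: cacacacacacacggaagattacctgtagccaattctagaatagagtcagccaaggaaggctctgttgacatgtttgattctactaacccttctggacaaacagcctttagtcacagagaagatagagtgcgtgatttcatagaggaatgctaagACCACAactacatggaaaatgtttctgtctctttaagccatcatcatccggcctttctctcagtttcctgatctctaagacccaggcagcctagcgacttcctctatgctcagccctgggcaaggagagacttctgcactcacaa
All 8 Gimap genes had windows, so 3 of 8 held TGTGGT on either strand, against 16.8% of all 32851 windows. The 3 genes had log2 fold changes from 0.60 to 2.51, and the 5 without it from 0.47 to 1.53.

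Neighbouring genes were compared over the 11545 measured genes that could be placed in order on the RefSeq annotation. In 12 places at least 4 consecutive measured genes were called in the same direction, each with an absolute log2 fold change of 0.3 or more. The Gimap genes formed the longest. On chromosome 1, Abi2 (0.48 ± 0.06), Raph1 (0.62 ± 0.17; not held without apicidin replicate 2 (0.40, adjusted p = 0.17)), Cd28, Ctla4 (87.5 and 99.1 with apicidin, against 56.8 and 58.02 with DMSO; 0.69 ± 0.18; not held without apicidin replicate 2 (adjusted p = 0.058)) and Icos (676 and 652 with apicidin, against 301 and 251 with DMSO; 1.27 ± 0.09) rose. The last 3 encode related receptors that costimulate or inhibit T cells. On chromosome 3, Cd53 rose with Lrif1 (0.39 ± 0.10) and the potassium channel gene Kcna3 (0.47 ± 0.07). On chromosome 8, Mvd, an enzyme of cholesterol synthesis, rose (0.46 ± 0.06) beside Cyba (0.59 ± 0.09) and Rnf166 (0.62 ± 0.07). On chromosome 12, Egln3 rose with Nubpl (0.34 ± 0.12; not held without apicidin replicate 1 (adjusted p = 0.094), without apicidin replicate 2 (adjusted p = 0.11) or without DMSO replicate 2 (adjusted p = 0.14)), Arhgap5 (0.51 ± 0.05) and Akap6 (0.66 ± 0.11).

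Runs of falling neighbours were fewer. On chromosome 12, Traf3 (-0.34 ± 0.08), Cdc42bpb (-0.91 ± 0.31; not held without apicidin replicate 2 (-0.59, adjusted p = 0.22) or without DMSO replicate 2 (adjusted p = 0.067)), Exoc3l4 (149 and 138 with apicidin, against 615 and 657 with DMSO; -2.14 ± 0.09), Tnfaip2 (8.75 and 14.6 with apicidin, against 37.5 and 52.7 with DMSO; -1.88 ± 0.32) and Gm266 (-1.20 ± 0.13) fell. On chromosome 6, Spr (-0.40 ± 0.08), Emx1 (-2.18 ± 0.49), Sfxn5 (-1.27 ± 0.17), Smyd5 (-0.54 ± 0.07) and Pradc1 (-0.44 ± 0.13; not held without apicidin replicate 1 (-0.20, adjusted p = 0.27)) fell. Further runs were made of near-identical copies (Acot1 to Acot6 and the Mettl7a genes, lower, and Ly6c1 and Ly6c2 beside Ly6a and Ly6i, higher) or of small nucleolar RNAs inside 1 host gene, among which reads can be shared. Whether such runs are more frequent than the called share of 38.1% gives was not tested.

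**Figure D3:**
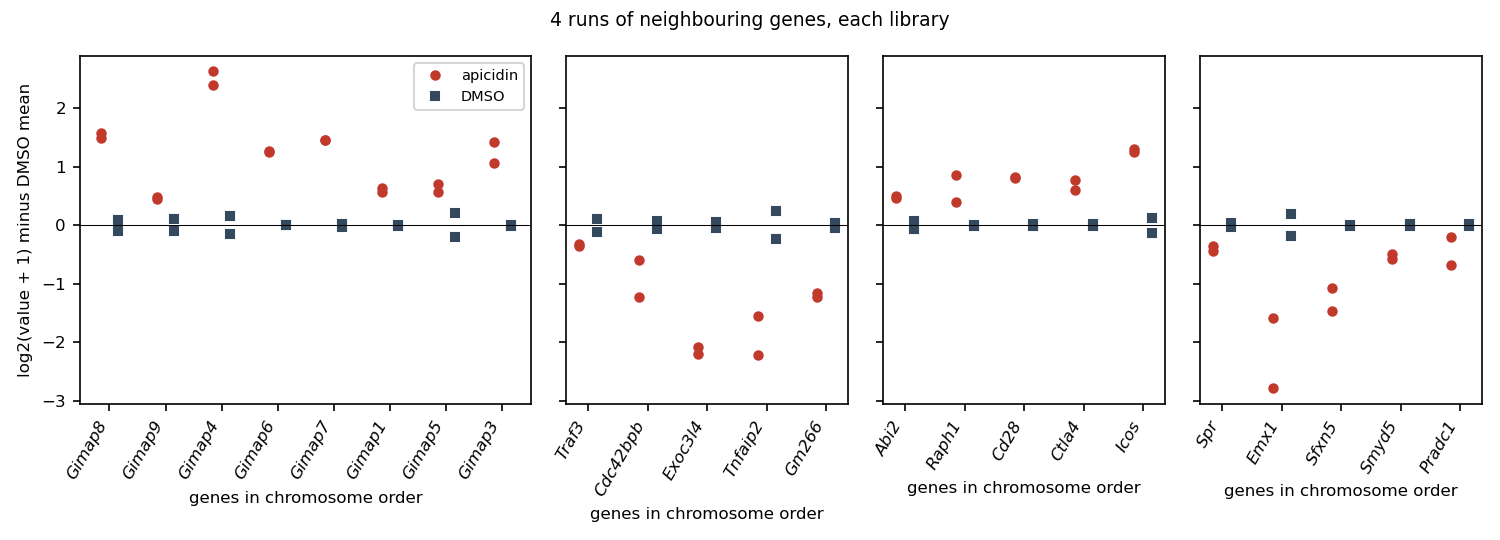
Log2(value + 1) of each library minus the DMSO mean (vertical) for the genes of 4 runs in chromosome order (horizontal), with apicidin libraries as red circles and DMSO libraries as dark squares. All 8 Gimap genes sit above 0 in both apicidin libraries, by 0.47 on average in Gimap9 and 2.51 in Gimap4, and the runs from Traf3 to Gm266 and from Spr to Pradc1 sit below 0 on average.

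Immediate early genes, the first to respond to receptor and growth factor signals, had 8 rises and 0 falls of 20 measured (median 0.18). Their called share was 40%, beside 38.1% of all genes. The AP-1 genes Junb (922 and 924 with apicidin, against 568 and 602 with DMSO; 0.66 ± 0.06) and Fosl2 (298 and 269 with apicidin, against 168 and 171 with DMSO; 0.74 ± 0.11) rose, as did Ier2 (0.68 ± 0.08) and Ier5 (0.35 ± 0.04). Fos (60.2 and 51.8 with apicidin, against 44.3 and 39.6 with DMSO; 0.41 ± 0.22, adjusted p = 0.15) and Egr1 (95.2 and 83.7 with apicidin, against 76.1 and 85.3 with DMSO; 0.15 ± 0.17, adjusted p = 0.53) did not pass. Without apicidin replicate 1 only 4 of the list rose. Of 9 phosphatase genes that limit MAP kinases 5 rose and 0 fell, but 4 lay below 0, the lowest at -0.55. The rises were led by Dusp6 (976 and 1027 with apicidin, against 562 and 600.4 with DMSO; 0.78 ± 0.06), Dusp4 (344 and 309 with apicidin, against 203 and 181 with DMSO; 0.76 ± 0.11), Dusp5 (0.64 ± 0.11) and Dusp2 (0.41 ± 0.05), with 22.1% of the exonic bases of Dusp5 opposite another gene. In the NF-κB list 5 genes rose and 2 fell of 16, and without apicidin replicate 1 only 2 rose. Rel, which encodes c-Rel, had 31.7 and 30.01 normalized reads in the apicidin libraries, against 7.95 and 13.2 in the DMSO libraries (1.499 ± 0.34, adjusted p = 0.0021), while Rela fell slightly (-0.25 ± 0.05). In the NF-κB list 43.8% of measured genes were called, beside 38.1% of all genes.

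The glucocorticoid receptor gene Nr3c1 had 13028 and 12837 normalized reads in the apicidin libraries, against 7557 and 7600.5 in the DMSO libraries (0.77 ± 0.04, adjusted p = 2.4e-10). Of 11 measured genes of the receptor and its known targets 5 rose and 2 fell. The kinase gene Sgk1 (629 and 578 with apicidin, against 322 and 341 with DMSO; 0.86 ± 0.08) and the clock gene Per1 (326 and 343 with apicidin, against 169 and 174 with DMSO; 0.96 ± 0.10) rose, Fkbp5 fell (-0.18 ± 0.05). Tsc22d3, which encodes GILZ, was at 0.05 ± 0.06 (adjusted p = 0.57). The labels name no glucocorticoid. Among 16 clock genes 3 rose and 3 fell, 37.5% called beside 38.1% of all genes. Rora (778 and 816 with apicidin, against 410.2 and 373 with DMSO; 1.02 ± 0.07) rose with Per1, and the output gene Dbp (213 and 231 with apicidin, against 314 and 324 with DMSO; -0.52 ± 0.10) and Per3 (-0.46 ± 0.10) fell.

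Survival and death genes were divided. Bcl2 (347 and 330.1 with apicidin, against 251 and 225 with DMSO; 0.51 ± 0.10) and Mcl1 (0.23 ± 0.04) rose and Bcl2l1, which encodes BCL-XL, fell (511 and 448 with apicidin, against 707 and 668 with DMSO; -0.52 ± 0.08). The BH3-only gene Bcl2l11, which encodes BIM, rose (2015 and 1972 with apicidin, against 1488 and 1567 with DMSO; 0.38 ± 0.05), and Bid (-0.36 ± 0.05) and Bak1 (-0.32 ± 0.05) fell, with 25.5% of the exonic bases of Bak1 opposite another gene. Of 14 measured p53 target genes 4 rose and 3 fell, with Fas, the death receptor gene, at 339 and 342 with apicidin, against 249.96 and 257 with DMSO (0.43 ± 0.09) and Mdm2 at -0.04 ± 0.05 (adjusted p = 0.53). The called share of the p53 list was 50%, beside 38.1% of all genes.

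Cell cycle genes moved by small amounts and mostly downward. Of 31 mitosis genes 19 fell and 0 rose (median -0.17), against 19.9% of all genes falling. Among 11 genes of mitotic entry and of the anaphase-promoting complex 10 fell. Ube2c, which encodes its ubiquitin-conjugating enzyme, had 2271 and 2304 normalized reads in the apicidin libraries, against 3239 and 3464 in the DMSO libraries (-0.55 ± 0.04), with 22.8% of its exonic bases opposite another gene. Cdc20, the complex's activator (3135 and 3157 with apicidin, against 4115 and 4103 with DMSO; -0.39 ± 0.04), and Ccnb2, a cyclin B gene (3168 and 3356 with apicidin, against 4046 and 4296 with DMSO; -0.35 ± 0.05), fell as well. The motor gene Kif11 (-0.09 ± 0.04, adjusted p = 0.088), the checkpoint gene Bub1 (0.11 ± 0.04, adjusted p = 0.053) and Top2a (-0.03 ± 0.05, adjusted p = 0.68) did not pass, and of 20 spindle and kinetochore genes 9 fell.

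DNA replication genes had 3 rises and 11 falls of 27 (median -0.08); without apicidin replicate 1 these counts were 0 and 7, and 1 rose without apicidin replicate 2 or DMSO replicate 2. The licensing inhibitor gene Gmnn, which encodes geminin (1132 and 1191 with apicidin, against 1526 and 1397 with DMSO; -0.33 ± 0.05), and the fork gene Gins1 (542 and 504 with apicidin, against 699 and 643 with DMSO; -0.36 ± 0.07) fell most. The helicase genes Mcm2 (-0.03 ± 0.04, adjusted p = 0.68) and Mcm4 (-0.0044 ± 0.04, adjusted p = 0.94) did not pass. Of 25 nucleotide and folate synthesis genes 3 rose and 11 fell, among them thymidine kinase, Tk1 (1112 and 1191 with apicidin, against 1642 and 1594 with DMSO; -0.49 ± 0.05), and the CTP synthase gene Ctps (-0.33 ± 0.05); without apicidin replicate 2 only 1 rose.

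In the passage from G1 to S phase, genes for inhibitors and for cyclins each went both ways. The inhibitor genes Cdkn1c (51.4 and 40.9 with apicidin, against 87.5 and 96.7 with DMSO; -0.99 ± 0.19), Cdkn1a and Cdkn2c (-0.38 ± 0.06) fell. Cdkn1b, which encodes p27 (2050.4 and 2037 with apicidin, against 1499 and 1579.7 with DMSO; 0.41 ± 0.05), and Cdkn2d (0.31 ± 0.05) rose, with 30.7% of the exonic bases of Cdkn1c opposite another gene. Ccnd2 (511 and 474 with apicidin, against 384 and 371 with DMSO; 0.38 ± 0.08) and Ccne1 (0.27 ± 0.06) rose. Ccnd3 (9048 and 8956 with apicidin, against 10566 and 11300 with DMSO; -0.28 ± 0.04), Ccne2 (-0.32 ± 0.08) and the kinase gene Cdk4 (6014 and 6107 with apicidin, against 7491 and 7535 with DMSO; -0.31 ± 0.04) fell. The pocket protein genes Rb1 (0.38 ± 0.05) and Rbl2 (0.39 ± 0.05), whose products hold E2F factors in check, rose, with 21.0% of the exonic bases of Rbl2 opposite another gene, and E2f7, itself a repressor, fell (-0.69 ± 0.13).

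Genes of translation and respiration fell by small amounts. Of 68 cytosolic ribosomal protein genes 56 fell and 0 rose (median -0.21), with Rps20 (14577 and 14966 with apicidin, against 20098 and 18946 with DMSO; -0.40 ± 0.05), Rps6 (34388 and 36084 with apicidin, against 47178 and 45531 with DMSO; -0.40 ± 0.06) and Rpl36 (-0.36 ± 0.05) among the larger falls. Without apicidin replicate 1 the number falling was 25. These genes have many processed copies in the genome, and how multiply mapped reads were counted is not given in the sources used here. Of 50 nuclear genes of oxidative phosphorylation 25 fell and 2 rose, or 10 fell without apicidin replicate 1, with Uqcrb of complex III (665 and 769 with apicidin, against 971 and 939 with DMSO; -0.42 ± 0.07), Ndufs8 of complex I (-0.41 ± 0.05) and the ATP synthase gene Atp5g2 (-0.38 ± 0.04) leading and Atp5h rising (0.33 ± 0.04). Of 29 ribosome biogenesis genes 11 fell and 1 rose, or 7 fell without either apicidin library or without DMSO replicate 1. Npm1, which encodes nucleophosmin (19853 and 20431 with apicidin, against 25025 and 23081 with DMSO; -0.25 ± 0.05), the polymerase I factor gene Ubtf (4940 and 5007 with apicidin, against 6315 and 6331 with DMSO; -0.35 ± 0.04) and the pseudouridine synthase gene Dkc1 (-0.28 ± 0.04) were among these. The called share of the ribosome biogenesis list was 41.4%, beside 38.1% of all genes.

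**Figure D4:**
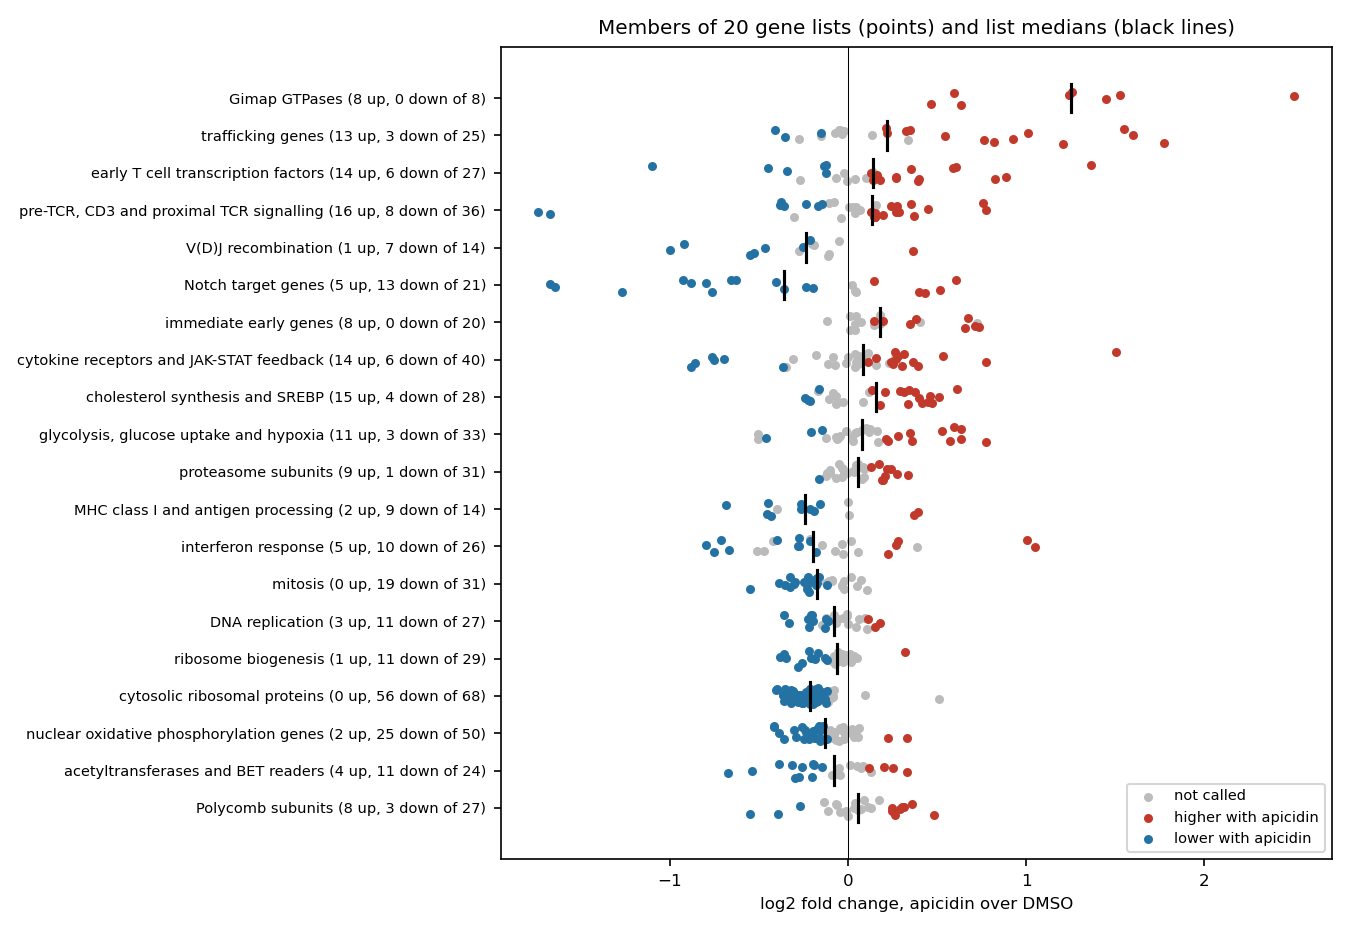
Log2 fold change of apicidin over DMSO (horizontal) for the measured members of 20 gene lists (points; red called higher, blue called lower, grey not called), with a black line at each list's median and the counts called beside its name. The 8 Gimap genes sit farthest right and the ribosomal protein points form the tightest cluster below 0; the Notch target and V(D)J lists spread widely to the left.

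Sterol genes rose more often than they fell. Of 28 genes of cholesterol synthesis and its SREBP regulators 15 rose and 4 fell (median 0.16). Without apicidin replicate 1 only 1 fell, and without DMSO replicate 2 it was 2. Among 20 enzymes 10 rose, and they included an early control point: Hmgcs1, the cytosolic HMG-CoA synthase, had 20062 and 20414 normalized reads in the apicidin libraries, against 13191 and 13263 in the DMSO libraries (0.61 ± 0.05, adjusted p = 1.2e-08). The later enzymes Sqle (4449.8 and 4366 with apicidin, against 3104 and 3078 with DMSO), Cyp51 (3547 and 3643 with apicidin, against 2629 and 2627 with DMSO; 0.45 ± 0.04), Sc5d (0.42 ± 0.05) and Fdft1 (0.34 ± 0.04) rose, and Dhcr7 (-0.07 ± 0.05, adjusted p = 0.29) did not pass. Both the activator gene Srebf1 (0.34 ± 0.05) and Insig1, whose product holds SREBP back (4041 and 3989.9 with apicidin, against 2984 and 3199 with DMSO; 0.38 ± 0.04), rose, as did Stard4, a sterol carrier gene (0.30 ± 0.06). The Hmgcs1 window (RefSeq, GRCm38.p6, chr13:119690101-119690400, plus strand) is shown because it was the only one of 20 windows of listed sterol genes with TCACNCCAC, the sterol regulatory element; capitals mark it, 137 bases before the start site.
Hmgcs1: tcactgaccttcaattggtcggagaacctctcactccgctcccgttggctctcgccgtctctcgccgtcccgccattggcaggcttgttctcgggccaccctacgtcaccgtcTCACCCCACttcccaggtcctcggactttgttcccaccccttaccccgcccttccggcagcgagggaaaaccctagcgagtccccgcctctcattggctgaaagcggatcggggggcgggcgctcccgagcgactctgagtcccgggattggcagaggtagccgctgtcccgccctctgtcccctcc
The motif, on either strand, was in 1.2% of the 32851 windows. Of 13 measured LXR and lipogenic genes 7 rose and 1 fell, and 0 fell without either apicidin library or DMSO replicate 2. Rises included Mylip, an LXR target that degrades the LDL receptor (573 and 578 with apicidin, against 418 and 407 with DMSO), Fasn (27821 and 26269 with apicidin, against 20389 and 21460 with DMSO) and Nr1h2, which encodes LXRβ (0.31 ± 0.05).

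Glucose uptake and hypoxia genes rose in part: 3 of 4 uptake and export genes rose and 0 fell, and 5 of 12 hypoxia genes rose and 2 fell. With 17 glycolysis genes, of which 3 rose and 1 fell, the list had 11 rises and 3 falls of 33 measured. Its called share was 42.4%, beside 38.1% of all genes. Without either apicidin library only 1 fell. The hexokinase gene Hk2 (2966 and 3015 with apicidin, against 1749.7 and 1742 with DMSO), the glucose transporters Slc2a1 (1903 and 1841 with apicidin, against 1218 and 1294 with DMSO) and Slc2a3 (2023 and 1939.9 with apicidin, against 1287 and 1263 with DMSO) and the lactate exporter Slc16a3 (688 and 686 with apicidin, against 468 and 483 with DMSO; 0.53 ± 0.07) rose. Among targets of hypoxia-inducible factor the prolyl hydroxylase gene Egln3 (9526 and 9604 with apicidin, against 6089 and 6203 with DMSO; 0.64 ± 0.04) and the mitophagy receptor gene Bnip3 (1620.4 and 1684 with apicidin, against 1101 and 1081 with DMSO; 0.60 ± 0.05) rose, with 22.3% of the exonic bases of Bnip3 opposite another gene. The enzymes in between were mostly not called: Ldha was at -0.07 ± 0.06 (adjusted p = 0.38) and Pgk1 at -0.01 ± 0.07 (adjusted p = 0.93), and Tpi1 fell (-0.46 ± 0.05). Of 12 iron genes 2 rose and 3 fell, 41.7% called beside 38.1% of all genes. The transferrin receptor gene Tfrc (5840.4 and 5916 with apicidin, against 3671 and 3495 with DMSO; 0.71 ± 0.04) and Ireb2, an iron sensor gene (0.44 ± 0.08), rose, and the ferritin light chain gene Ftl1 fell (-0.41 ± 0.04), with 26.5% of its exonic bases opposite another gene.

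Most standard proteasome genes were not called, while most measured antigen processing genes fell. Of 31 standard proteasome subunits (median 0.06) 32.3% were called, beside 38.1% of all genes, and 9 rose and 1 fell. They included Psmc1 at 0.34 ± 0.04 and Psmd3 at 0.27 ± 0.04; without apicidin replicate 1 none fell, and without DMSO replicate 2 7 rose and 4 fell. Of 10 measured antigen processing genes 0 rose and 8 fell. They included the immunoproteasome subunits Psmb10 (681 and 657 with apicidin, against 1066 and 1086 with DMSO; -0.69 ± 0.06) and Psmb8 (-0.27 ± 0.04), the activator subunits Psme1 (2588 and 2571 with apicidin, against 3526 and 3422 with DMSO; -0.43 ± 0.04) and Psme2 (-0.45 ± 0.06), and Erap1, the peptidase that trims peptides (-0.45 ± 0.04). The light chain gene B2m fell (10464 and 11013 with apicidin, against 12389 and 13427 with DMSO; -0.26 ± 0.05) and the heavy chain gene H2-D1 rose (0.39 ± 0.07); H2-K1 was at 0.37 ± 0.10, a call not held without apicidin replicate 2 (adjusted p = 0.095), and class I heavy chain genes are close copies of each other.

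Interferon response genes were lower more often than higher, 10 and 5 of 26 measured, or 6 lower without apicidin replicate 1. The exonuclease gene Isg20 (136 and 136 with apicidin, against 222 and 211 with DMSO; -0.66 ± 0.12) fell, and Usp18 (602 and 703 with apicidin, against 292 and 337 with DMSO; 1.05 ± 0.09) and Rsad2, which encodes viperin (118 and 128 with apicidin, against 53.4 and 69.4 with DMSO; 1.003 ± 0.18), rose. The interferon regulatory factor gene Irf1 (0.23 ± 0.04) rose slightly. Isg15 (-0.07 ± 0.14, adjusted p = 0.71) and Bst2 (0.02 ± 0.06, adjusted p = 0.86) did not pass, and Mx1 and Mx2 were not measured.

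Small nucleolar RNAs and replication-dependent histone genes were lower with apicidin in values that leaned on single libraries. Of 85 measured snoRNA and scaRNA genes 42 fell and 0 rose (median -0.47). Their share of all reads was 0.140% and 0.114% with apicidin, against 0.203% and 0.143% with DMSO, and without DMSO replicate 1 26 fell and the median was -0.21. Without DMSO replicate 2 53 fell and the median was -0.74. The deposited values do not tell a snoRNA from the intron of its host gene; Gas5, a host of many, fell (4675 and 4875 with apicidin, against 7482 and 5817 with DMSO; -0.47 ± 0.07; -0.28 without DMSO replicate 1). Other structural RNAs fell too: Rmrp, the RNA of RNase MRP (95543 and 72088 with apicidin, against 117450 and 122390 with DMSO; -0.53 ± 0.10; -0.33 without apicidin replicate 2; 44.1% of its bases opposite another gene), and Terc, the telomerase RNA (164 and 172 with apicidin, against 279.5 and 272 with DMSO; -0.71 ± 0.11). The 45S pre-rRNA Rn45s was at 494540 and 623150 with apicidin, against 691130 and 828830 with DMSO (-0.45 ± 0.18, adjusted p = 0.063). Of 63 measured clustered histone genes 32 fell and 2 rose. The number falling was 5 without apicidin replicate 1, 20 without apicidin replicate 2, 53 without DMSO replicate 1 and 16 without DMSO replicate 2. These genes are near-identical copies, and they took 17.0% and 17.6% of reads with apicidin, against 17.9% and 20.3% with DMSO. Long noncoding RNAs were called less often than other genes, 19.1% beside 38.1% of all measured genes, and 55 rose and 34 fell of 467. Malat1 (79139 and 81850 with apicidin, against 45139 and 43383 with DMSO; 0.86 ± 0.06) and Neat1 (1361 and 1429.7 with apicidin, against 887 and 768 with DMSO; 0.76 ± 0.06), both retained in the nucleus, were among those that rose.

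The largest single changes lay mostly outside these lists. Among genes with a mean of 50 or more, Mmp9, a secreted matrix protease, had 349 and 371 with apicidin, against 76.1 and 92.3 with DMSO (2.09 ± 0.13). Lztfl1, whose product acts in ciliary and membrane transport, had 2683 and 2696 with apicidin, against 953 and 894 with DMSO (1.54 ± 0.05). Other rises of this size were Fndc9 (95.2 and 79.1 with apicidin, against 32.95 and 31.6 with DMSO; 1.40 ± 0.21), Sgtb (88.6 and 75.5 with apicidin, against 29.5 and 31.6 with DMSO; 1.39 ± 0.21) and the ATP receptor gene P2rx7 (443 and 411 with apicidin, against 156 and 179 with DMSO; 1.35 ± 0.10). Hist1h1t, a testis linker histone gene, had 118 and 106 with apicidin, against 30.7 and 30.8 with DMSO (1.83 ± 0.20). The filter can be passed through the apicidin libraries alone, which favours rises among genes with a low DMSO level. None of the low genes named next was at 10 or more in both DMSO libraries. Of genes with a DMSO mean under 20, the largest rises were Prrg4 (13.1 and 12.7 with apicidin, against 1.14 and 1.76 with DMSO; 2.52 ± 0.54), the bicarbonate transporter gene Slc4a8 (13.1 and 12.7 with apicidin, against 1.14 and 2.64 with DMSO; 2.32 ± 0.54), the chemokine receptor gene Ccr2 (39.4 and 23.6 with apicidin, against 4.54 and 11.4 with DMSO; 1.93 ± 0.41). They were followed by Ankrd35 (38.3 and 39.1 with apicidin, against 9.09 and 10.5 with DMSO; 1.88 ± 0.31), Klf12 (13.1 and 20.01 with apicidin, against 3.41 and 4.4 with DMSO; 1.82 ± 0.45; not held without apicidin replicate 2 (adjusted p = 0.094)) and Cyp4f18 (16.4 and 10.9 with apicidin, against 7.95 and 0.879 with DMSO; 1.81 ± 0.62; not held without apicidin replicate 1 (adjusted p = 0.16) or without DMSO replicate 2 (0.69, adjusted p = 0.27)).

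Among the falls, Cdh1, which encodes E-cadherin, had 53.6 and 59.1 with apicidin, against 328 and 316 with DMSO (-2.50 ± 0.14), and the ATP-gated channel gene P2rx1 had 35.01 and 27.3 with apicidin, against 176 and 179 with DMSO (-2.49 ± 0.18). The transcription factor gene Atoh8 had 43.8 and 35.5 with apicidin, against 197 and 183 with DMSO (-2.24 ± 0.17). The kappa opioid receptor gene Oprk1 (420.1 and 424 with apicidin, against 1598 and 1659.7 with DMSO; -1.95 ± 0.06), the nerve growth factor receptor gene Ngfr (347 and 298 with apicidin, against 1202 and 1281 with DMSO; -1.94 ± 0.08) and the dynamin gene Dnm1 (126 and 109 with apicidin, against 393 and 425 with DMSO; -1.79 ± 0.11) encode proteins best known from neurons. Neuronal genes as a list did not fall: of 18 measured 4 fell and 2 rose, and 12 lay above 0 (median 0.16). Their called share was 33.3%, beside 38.1% of all genes. Nqo1, a quinone reductase (24.1 and 21.8 with apicidin, against 85.2 and 92.3 with DMSO; -1.91 ± 0.22), Rab44 (284 and 297 with apicidin, against 1201 and 1185 with DMSO; -2.03 ± 0.07), Slc5a9 (184 and 164 with apicidin, against 589 and 592 with DMSO; -1.76 ± 0.09) and Ifitm2 (44.9 and 49.1 with apicidin, against 139 and 187 with DMSO; -1.76 ± 0.18; 40.9% of its exonic bases shared with another gene on the same strand) fell as well.

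The apicidin response was then set beside the responses to shHdac3 and to DAPT in 1 limma fit of all 12 libraries. Of 13042 genes tested, 4359 (33.4%) differed between the apicidin and shHdac3 responses, 1971 with a higher and 2388 with a lower log2 fold change under apicidin. Against DAPT 4541 genes (34.8%) differed, 2453 higher and 2088 lower under apicidin. In the same fit 41.2% of genes passed with shHdac3 and 36.8% with DAPT against their own controls. The treatments differed in duration as well, 24 h for apicidin and DAPT and 96 h for the hairpins. Of the 2265 genes that rose with apicidin, 38.4% also rose with shHdac3 and 13.8% fell, where 22.9% of all measured genes rose and 19.7% fell with shHdac3. The shared genes were 30.5% of the shHdac3 rises. Of the 2481 that fell, 36.0% also fell with shHdac3 and 17.2% rose. With DAPT 32.4% of the apicidin rises also rose and 33.7% of the falls also fell, where 16.5% of all genes rose and 21.7% fell. Across genes the apicidin log2 fold changes correlated with those of shHdac3 at r = 0.244 and with those of DAPT at r = 0.269, which describes these libraries, since genes are not independent replicates.

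Growth genes set the apicidin and shHdac3 responses apart. In this fit, of 27 DNA replication genes 4 rose and 12 fell with apicidin, whereas 25 rose and 0 fell with shHdac3 and 0 rose and 21 fell with DAPT. The apicidin response differed from shHdac3 in 25 genes and from DAPT in 14. Of 31 mitosis genes 1 rose and 19 fell with apicidin, 15 rose and 1 fell with shHdac3, and 3 rose and 4 fell with DAPT, with 25 differing from shHdac3. Ube2c was at -0.55 ± 0.05 with apicidin, -0.13 ± 0.05 with shHdac3 and 0.07 ± 0.05 with DAPT, and its difference from shHdac3 was -0.41 ± 0.07. Ribosome biogenesis genes had 1 rise and 11 falls of 29 with apicidin, 24 rises and 0 falls with shHdac3, and 0 rises and 26 falls with DAPT. Npm1 was at -0.25 ± 0.05 with apicidin, 0.19 ± 0.05 with shHdac3 and -0.57 ± 0.05 with DAPT. Nucleotide and folate synthesis genes followed the same order, with 13 of 25 falling with apicidin, 0 with shHdac3 and 22 with DAPT. Cytosolic ribosomal protein genes fell in all 3 experiments, 54, 42 and 40 of 68, and few differed, 6 from shHdac3 and 9 from DAPT.

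Glycolysis and hypoxia genes set apicidin apart from both other treatments: 14 rose and 3 fell of 33 with apicidin, 1 rose and 24 fell with shHdac3, and 1 rose and 20 fell with DAPT. The apicidin response differed in 22 of them from shHdac3 and in 21 from DAPT. Hk2 was at 0.78 ± 0.04 with apicidin, -0.50 ± 0.04 with shHdac3 and -0.49 ± 0.04 with DAPT, a difference from shHdac3 of 1.28 ± 0.06 and from DAPT of 1.27 ± 0.06. Slc2a3 was at 0.64 ± 0.05 with apicidin, -0.28 ± 0.05 with shHdac3 and -0.09 ± 0.05 with DAPT. Immediate early genes rose with apicidin and with DAPT, 7 and 9 of 20 with 0 falling in either, and with shHdac3 2 rose and 15 fell. Junb was at 0.66 ± 0.07 with apicidin, -0.50 ± 0.07 with shHdac3 and 0.15 ± 0.07 with DAPT. Of 31 proteasome genes 9 rose with apicidin and 20 with shHdac3, 26 fell with DAPT, and 25 differed between apicidin and DAPT.

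Lymphoid gene lists differed in how far the treatments shared a direction. Of the 8 Gimap genes 8 rose with apicidin, 6 with shHdac3 and 4 with DAPT, and 0 fell in any. Gimap4 was at 2.51 ± 0.17 with apicidin, 1.74 ± 0.17 with shHdac3 and 0.38 ± 0.17 with DAPT, and apicidin exceeded shHdac3 by 0.77 ± 0.24 and DAPT by 2.14 ± 0.24. Notch target genes had 13, 13 and 14 falls and 5, 3 and 6 rises of 21 with apicidin, shHdac3 and DAPT. The apicidin response differed from shHdac3 in 14 of them and from DAPT in 17. Within this list the size differed by gene: Ptcra was at -1.67 ± 0.04 with apicidin, -1.23 ± 0.04 with shHdac3 and -2.33 ± 0.04 with DAPT, a difference from shHdac3 of -0.44 ± 0.06 and from DAPT of 0.66 ± 0.06. Hey1 was at -1.26 ± 0.05 with apicidin, -0.62 ± 0.05 with shHdac3 and -2.36 ± 0.05 with DAPT, and Dtx1 was at -0.65 ± 0.05 with apicidin, -0.55 ± 0.05 with shHdac3 and -3.06 ± 0.05 with DAPT. Rag1 was at -0.92 ± 0.04 with apicidin, -0.69 ± 0.04 with shHdac3 and -0.55 ± 0.04 with DAPT, with a difference from shHdac3 of -0.22 ± 0.06. Il7r was at -0.88 ± 0.08 with apicidin, 0.55 ± 0.08 with shHdac3 and 0.35 ± 0.08 with DAPT, a difference from shHdac3 of -1.43 ± 0.11 and from DAPT of -1.23 ± 0.11. Hdac5 was at 1.51 ± 0.12 with apicidin, 0.89 ± 0.12 with shHdac3 and 0.40 ± 0.12 with DAPT, with a difference from shHdac3 of 0.62 ± 0.17. Antigen processing and class I genes fell in 9 of 14 with apicidin and in 3 with each other treatment. Of 28 sterol genes 15 rose with apicidin, 9 with shHdac3 and 3 with DAPT, and Hmgcs1 was at 0.62 ± 0.05 with apicidin, 0.15 ± 0.05 with shHdac3 and -0.06 ± 0.05 with DAPT.

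**Figure D5:**
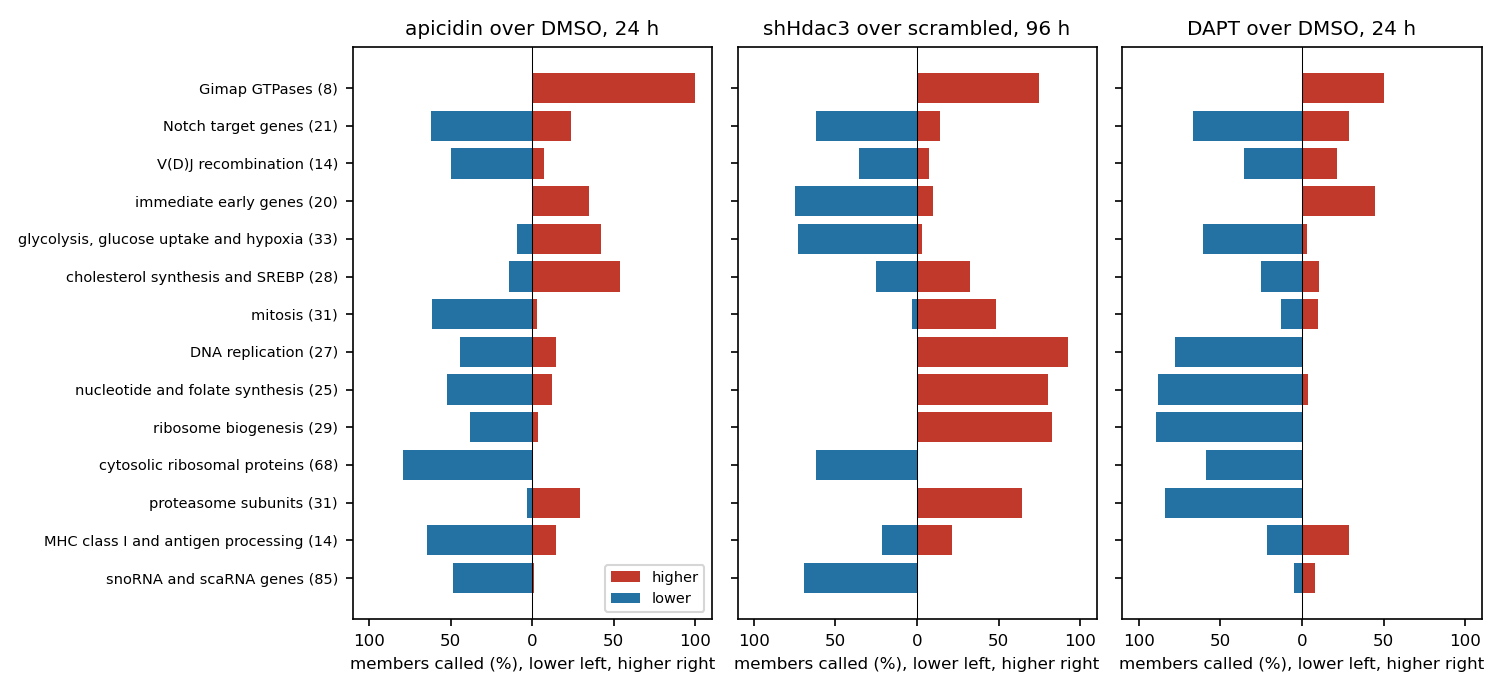
Percentage of the members of 14 gene lists called higher (red, right) and lower (blue, left) in the apicidin (left panel), shHdac3 (middle) and DAPT (right) comparisons of the 12-library fit; the number of genes is beside each name. DNA replication, nucleotide and ribosome biogenesis genes run left with apicidin and DAPT and right with shHdac3, and the glycolysis list runs mainly right with apicidin and left with the other treatments.

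Single genes with the largest differences were named by the same level rule. Against shHdac3 the apicidin log2 fold change was higher by large amounts in Eno2 (2.40 ± 0.31), March9 (2.40 ± 0.29), the perforin gene Prf1 (2.38 ± 0.39), Mmp9 (2.25 ± 0.24) and Dennd5a (2.12 ± 0.29). It was lower by most in Oprk1 (-2.77 ± 0.07), Cdh1 (-2.26 ± 0.17), Gpr56 (-1.98 ± 0.12), Gpr97 (-1.92 ± 0.21), Cox6a2 (-1.81 ± 0.18) and Cd93 (-1.76 ± 0.14). Oprk1 was at -1.94 ± 0.05 with apicidin, 0.83 ± 0.05 with shHdac3 and -3.18 ± 0.05 with DAPT. Against DAPT it was higher by most in Ifi204 (3.43 ± 0.31), Coro2a (2.48 ± 0.09), Dtx1 (2.41 ± 0.07), Spsb4 (2.20 ± 0.22), Gimap4 and Gpr65 (2.01 ± 0.28). It was lower by large amounts in Cilp (-2.35 ± 0.26), Tdrd5 (-2.26 ± 0.11), Smim5 (-2.20 ± 0.16), the mast cell protease gene Cpa3 (-2.19 ± 0.09) and Ppap2b (-2.15 ± 0.18). Cpa3 was at -0.04 ± 0.06 with apicidin, 1.33 ± 0.06 with shHdac3 and 2.16 ± 0.06 with DAPT. Each difference named for a single gene passed without any 1 of its 8 libraries, except that of Gimap4 from shHdac3, which was lost without apicidin replicate 2 (adjusted p = 0.078), without DMSO replicate 1 (adjusted p = 0.066) or without scrambled replicate 1 (adjusted p = 0.075).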

How the data were processed

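The labels' protocols give stranded libraries made from total RNA after depletion of ribosomal RNA. Per the submitters' processing notes, FastQC, Bowtie2, TopHat and DESeq2 were used with mm9; versions are not named. Not given in the sources used here are the program that counted reads, its annotation, its strand setting and its treatment of multiply mapped reads. The deposited tables give, per the file headers, a normalized signal for every gene and library and its mean. They also give the authors' log2 fold change and SE, a test score, and the authors' p-value and adjusted p-value. Signal divided by a constant for each library came out whole for 100% of values, within 1e-06, and these recovered reads served for depth, edgeR and the 12-library fit.

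Apicidin was tested against DMSO with limma 3.58.1 (R 4.3.3), two-sided with trended prior variance and no covariates, on log2(value + 1), and p was adjusted by Benjamini-Hochberg over 12463 genes (threshold 0.05). The pseudocount of 1 understates fold changes of low genes. Low genes can also pass the filter through the group where they are high, which favours large changes among them. For differences between responses, new size factors put all 12 libraries on one scale before a 6-group limma fit. An exact permutation test of 2 against 2 cannot go below p = 0.33 and was not used. Simulated reads for 12352 genes held 50 changed genes of each size, of which limma called 56% (1.25-fold), 78% (1.5-fold), 84% (2-fold) and 100% (4-fold), beside 14 false calls. Far fewer genes were changed there than the 38.1% called here, so these rates may not carry over to the real comparison. Alternatives included edgeR 4.0.16, other scalings, filters and pseudocounts, a replicate block and each library left out.

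Sample titles gave groups and replicate numbers. The members and gene lists were chosen with earlier results of these data known, so counts over lists describe these libraries. Named genes are the 12 largest rises and falls with a mean of 50 or more and groups that do not overlap, the 6 largest rises from a DMSO mean under 20, the 6 leading members of each list, and the 6 largest differences in each direction. Some genes that these rules name are not reported here. Other list members and the genes of neighbouring runs were named after their values were seen. Gene order and promoters were matched by symbol to RefSeq on GRCm38.p6, and exon overlap was taken by symbol from the GENCODE annotation.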

Additional observations from a re-analysis of the deposited data

How the results depend on the processing

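The counts of 2265 higher and 2481 lower genes moved by over 1.5 times under 1 alternative, the adjusted p of the authors' deposited table, which gives 1136 higher and 1329 lower genes and has no value for 1051 of the measured genes; the cause was not tested. With each library left out the counts ranged from 1564 to 2185 higher and from 1794 to 2299 lower, lowest without apicidin replicate 1. Other alternatives gave 2201 to 2442 higher and 2399 to 2637 lower genes. They comprised edgeR on recovered reads, pseudocounts of 0.5 and 5, no filter, a filter of 50, TMM and upper-quartile factors, and the spread of all 12 libraries. Leaving out structural RNA and clustered histone genes, an alternative chosen after seeing the data, gave 2263 and 2401. No scaling moved the median of all genes by over 0.1, but each scaling sets the libraries level on the bulk of genes. A change shared by most genes therefore cannot be seen, and all fold changes are relative to that level. With the replicate number as a block the counts were 2294 and 2517. The numbers were not taken to pair the samples: same-numbered libraries deviated together at r = 0.039 over 2 pairs, and the labels name no shared batch or day. Of the 281 named genes that passed, 255 passed under all alternatives that gave them a value, 22 lost the call by the authors' adjusted p, 0 under the block, and 0 changed sign. Of the counts of list members that rose or fell, 1269 stayed within 1.5 times of the main count and 103 did not. The number of genes whose response differed ranged from 3570 to 4110 against shHdac3 and from 3672 to 4135 against DAPT with each library left out; TMM factors and a pseudocount of 5 gave 4248 and 4399 against shHdac3 and 4509 and 4554 against DAPT. Depth limits the lowest genes: below 29.0 normalized reads on average, calls had a median absolute log2 fold change of 1.18.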

Other observations

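Stress and amino acid genes under ATF4 fell more often than they rose with apicidin, 10 and 5 of 33, or 5 falling without apicidin replicate 1. Slc7a11, the cystine importer (5780.3 and 5746 with apicidin, against 7938 and 8319.5 with DMSO; -0.50 ± 0.04), the transcription factor gene Atf5 (-0.61 ± 0.09) and the serine synthesis genes Psat1 (-0.23 ± 0.04) and Phgdh (-0.18 ± 0.04) fell. Atf4 itself (5301 and 5512 with apicidin, against 4645 and 4678 with DMSO; 0.21 ± 0.04) and the amino acid transporter genes Slc7a5 (0.21 ± 0.05) and Slc1a5 (0.26 ± 0.04) rose. The called share of the 33 genes was 45.5%, beside 38.1% of all genes. In the 12-library fit 5 of the 33 rose and 9 fell with apicidin, 22 rose and 5 fell with shHdac3, and 3 rose and 25 fell with DAPT. The apicidin response differed in 22 from shHdac3 and in 24 from DAPT. Of 23 heat shock and chaperonin genes 2 rose and 5 fell, or 2 fell without apicidin replicate 1 and 3 without apicidin replicate 2 or DMSO replicate 1. The constitutive HSP70 gene Hspa8 fell (37430 and 38342 with apicidin, against 47413 and 46988 with DMSO; -0.32 ± 0.06) and Hspa4 rose (0.37 ± 0.04). The called share of the heat shock and chaperonin list was 30.4%, beside 38.1% of all genes. The polyamine synthase genes Srm (1102 and 1169 with apicidin, against 1443 and 1422 with DMSO; -0.34 ± 0.05) and Sms (-0.29 ± 0.05) fell, and Odc1, the first enzyme of that pathway, was at 0.02 ± 0.04 (adjusted p = 0.73). Mitochondrial ribosomal protein genes had a called share of 34.3%, beside 38.1% of all genes. Of 35 mitochondrial ribosomal protein genes 9 fell and 3 rose, or 3 fell without apicidin replicate 1 and 5 without DMSO replicate 1.

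Genes of cytotoxic cells, 11 measured, had 4 rises and 2 falls. The granzyme gene Gzma (25105 and 26239 with apicidin, against 12730 and 12525 with DMSO) and the perforin gene Prf1 (75.5 and 105 with apicidin, against 38.6 and 47.5 with DMSO) rose, as did Tbx21, which encodes T-bet (54.7 and 50.02 with apicidin, against 23.9 and 23.7 with DMSO). The death ligand gene Tnfsf10 (608 and 659 with apicidin, against 867 and 791 with DMSO; -0.39 ± 0.07) and Nfil3 (-0.24 ± 0.05) fell. Gzmb and the NK receptor genes Ncr1, Klrd1, Klrk1 and Klrb1c were at 0 in all 4 libraries. The replacement histone gene H3f3b rose (38960 and 40317 with apicidin, against 29202 and 29401 with DMSO; 0.44 ± 0.05) and H3f3a was at -0.05 ± 0.05 (adjusted p = 0.4). Of 20 germline genes 4 were measured, and Brdt, a testis bromodomain gene (283 and 312 with apicidin, against 234 and 185 with DMSO; 0.51 ± 0.12), rose and Stra8 (52.5 and 50.9 with apicidin, against 108 and 107 with DMSO; -1.04 ± 0.17) fell.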
